A study of Mus musculus with 9 samples.

Results

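The circadian clock genes described here were 10 genes fixed by name: Per1, Per2, Per3, Cry1, Cry2, Nr1d1, Nr1d2, Arntl, Dbp and Bhlhe40. They were found as probe sets (groups of array probes that measure 1 transcript) whose annotation names that gene alone, and the brightest probe set stood for the gene. Of the 10 genes 9 were found, each on 1 such probe set, among 22180 genes measured. Per2 lies on a probe set that the annotation shares with a second gene, and no value is given for it. All 9 passed the filter on dim genes (at least 3 of 9 log2 values at or above 6.51, the median of the table), which left 12630 genes for the tests.

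The study measured 3T3-L1 cells, an established mouse fibroblast line that can be turned into adipocytes, on 9 single-colour arrays in 3 groups of 3. The first group had an siRNA against CD24 (100 nmol) and 6 h of 0.5 mM IBMX with 1 µM dexamethasone (Dex), the second had a scrambled siRNA at the same amount with the same IBMX/Dex, and the third was vehicle-treated. IBMX blocks phosphodiesterases and so raises cAMP, Dex is a synthetic glucocorticoid, and CD24 is a small surface glycoprotein. In all groups the cells were confluent pre-adipocytes held growth-arrested for 48 h. The labels do not say whether vehicle cells received an siRNA, so transfection and IBMX/Dex cannot be told apart in the differences from vehicle. Nor do they say that replicates came from different cultures, and the spread behind each p-value may be technical. The IBMX/Dex arrays were all taken at 6 h, and the labels give no time for the vehicle arrays. A difference in sampling time therefore cannot be told apart from treatment in the differences from vehicle.

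The clock of mammalian cells is a loop of transcription factors. ARNTL (also called BMAL1) pairs with CLOCK on E-box sequences and switches on the Per, Cry, Nr1d, Dbp and Bhlhe40 genes. PER and CRY proteins then enter the nucleus and block that pair, while the receptors made from Nr1d1 and Nr1d2 (REV-ERB alpha and beta) repress Arntl. Glucocorticoids and agents that raise cAMP are widely used to reset the clocks of cultured fibroblasts, and Per1 is a known immediate target of both.

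The arrays had medians between 6.47 and 6.56 in log2 units, and their number limits the precision: the median 95% interval of a difference reached 0.34 log2 units to either side. Pre-adipocyte and fibroblast markers were present, with Dlk1 the brightest at 12.27, and 6 of the 8 found were at or above 6.51 on all 9 arrays. Their mean level was 9.71 to 9.78 on the CD24 siRNA arrays, 9.68 to 9.78 on the scrambled siRNA arrays and 10.11 to 10.29 on the vehicle arrays, so it differed between the IBMX/Dex and the vehicle arrays, and its part in the clock gene values was not tested. Of the mature adipocyte markers Adipoq, Plin1, Cidec, Lep and Cebpa averaged between 5.51 and 6.33, below that level. Pparg averaged 10.23, Fabp4 9.60 and Lipe 7.36, above it. Of the macrophage markers Cd14 averaged 8.61, Cd68 8.26 and Csf1r 6.97, above 6.51, and Itgam 5.99, Adgre1 5.82 and Ptprc 4.70, below it. The mean level of 6 macrophage markers was 6.73 to 6.90 with CD24 siRNA, 6.61 to 7.0 with scrambled siRNA and 6.53 to 6.66 with vehicle. None of the 6 tested macrophage, endothelial and epithelial markers passed with scrambled siRNA and IBMX/Dex against vehicle. In that comparison 1 of 5 skeletal muscle markers and 2 of 7 pre-adipocyte markers were lower, against 3.6% of all genes. The skeletal muscle markers averaged 7.88 (Tnnt2), 7.61 (Des), 7.23 (Acta1), 7.03 (Myog) and 6.55 (Myod1), and 4 of 5 were at or above 6.51 on all 9 arrays. Cd24a, the siRNA target, was at 10.15, 10.16 and 11.72 on the CD24 siRNA arrays of numbers 1, 2 and 3, against 11.19, 11.73 and 11.81 on the scrambled siRNA arrays. The vehicle arrays, at 8.88, 9.92 and 9.49, lay below all CD24 siRNA arrays. The array labelled CD24 siRNA replicate 3 was only 0.10 log2 units below its same-numbered scrambled siRNA array, against 1.04 and 1.57 for the other pairs. Values without it are given beside the CD24 siRNA results for the clock genes, and for the further pathway genes that passed.

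**Figure D1:**
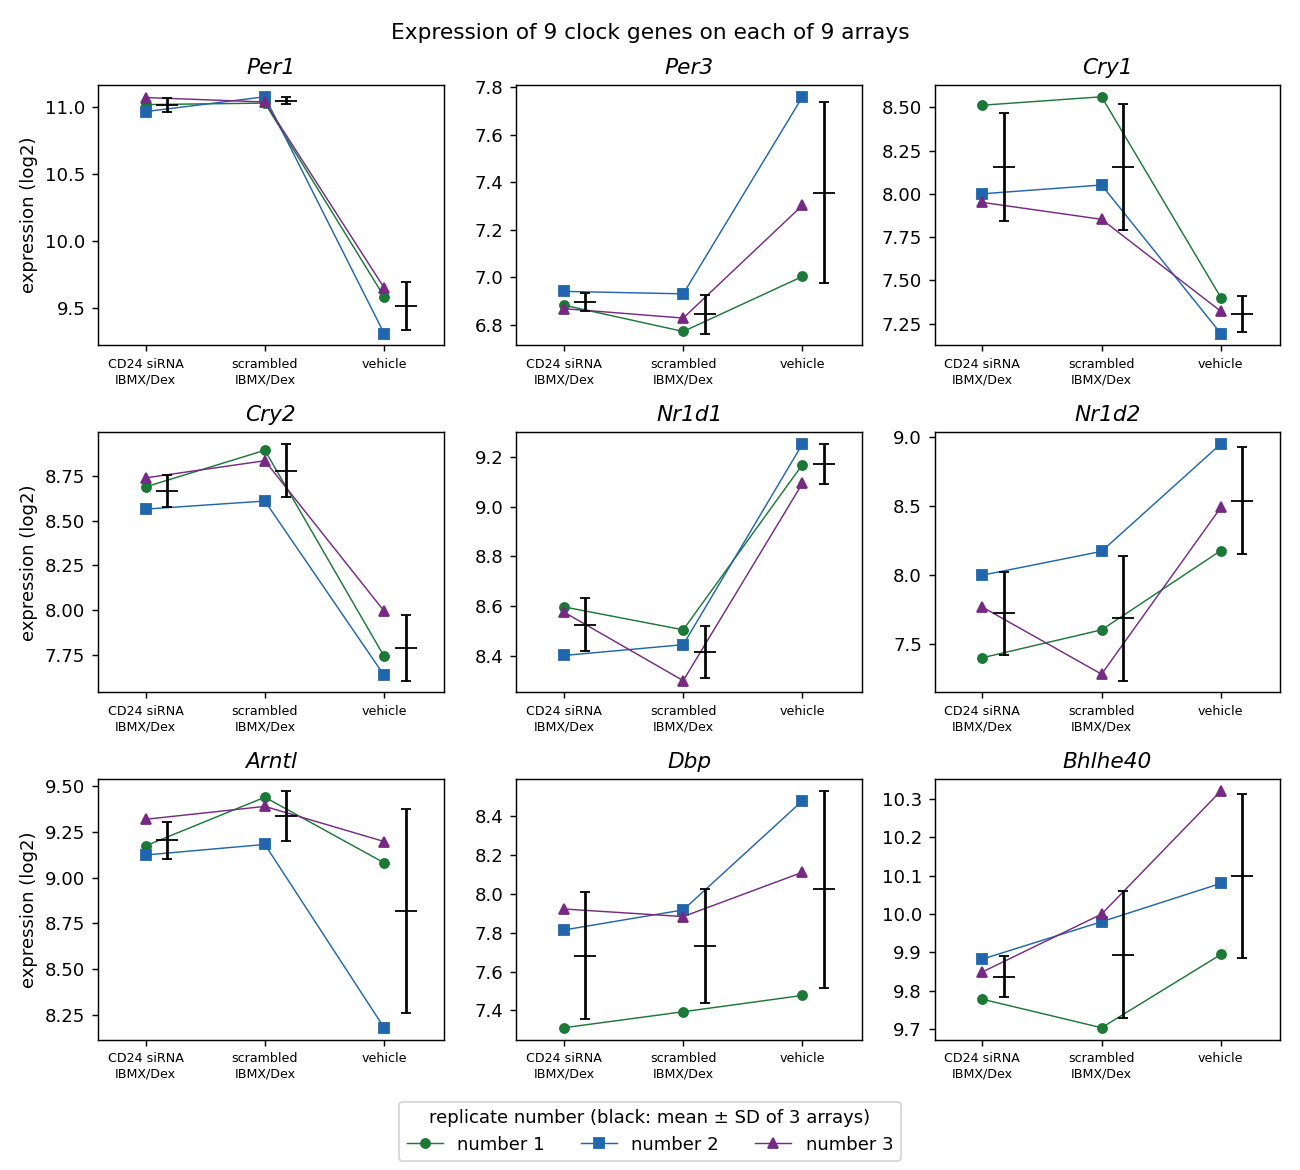
Log2 expression of the 9 clock genes on each array, with CD24 siRNA plus IBMX/Dex on the left, scrambled siRNA plus IBMX/Dex in the middle and vehicle on the right of each panel. Coloured lines join arrays of the same replicate number and black bars give the mean ± SD of 3 arrays; Per1, Cry1 and Cry2 were high and Nr1d1 was low on all 6 IBMX/Dex arrays, and each panel has its own vertical scale.

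With scrambled siRNA and IBMX/Dex the clock genes moved in both directions: Per1, Cry2 and Cry1 rose against vehicle and Nr1d1 fell, while Per3, Nr1d2, Arntl, Dbp and Bhlhe40 did not pass. The test was limma on all 9 arrays, with Benjamini-Hochberg adjustment over 12630 genes and a threshold of 0.05. That is 4 of the 9 tested, against 6.94% of all genes (3 rose against 3.33% of all genes, and 1 fell against 3.6%). With the replicate number as a block, a fit that compares arrays of the same number, 6 of 9 passed against 23.3% of all genes. Per3 and Nr1d2 were the genes added, so that 3 rose against 11.9% and 3 fell against 11.4% of all genes. The 3 arrays of each group did not overlap for 6 of 9 clock genes, against 25.2% of all genes. All 9 had the same sign in 3 of 3 same-numbered pairs, against 51.9% of all genes. The median difference of the 9 was -0.20 log2 units beside 0.02 for all tested genes, and the median size without sign was 0.76 beside 0.19. The members had been chosen with results of these arrays known, so these shares describe the list.

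With CD24 siRNA and IBMX/Dex, set against the same vehicle arrays, Per1, Cry2, Cry1 and Nr1d1 again passed. This made 4 of 9, against 6.65% of all genes (3 rose against 2.92%, 1 fell against 3.73%). With the replicate block 6 of 9 passed against 22.4% of all genes, 3 higher against 10.4% and 3 lower against 12.1%. The groups did not overlap for 7 of 9, against 25.8% of all genes, since Bhlhe40 joined the 6. All 9 again had 1 sign in 3 of 3 pairs, against 51.3% of all genes. The median difference was -0.26 beside 0.02 for all genes, and the median size without sign 0.65 beside 0.18. Without the array labelled CD24 siRNA replicate 3, 3 of 9 passed, against 2.54% of all genes in that fit, and 5 of 9 with the block, against 14% of all genes. Cry1 was the gene lost without the block and Per3 the gene lost with it. The vehicle arrays are shared, so the comparisons are not independent of each other.

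**Figure D2:**
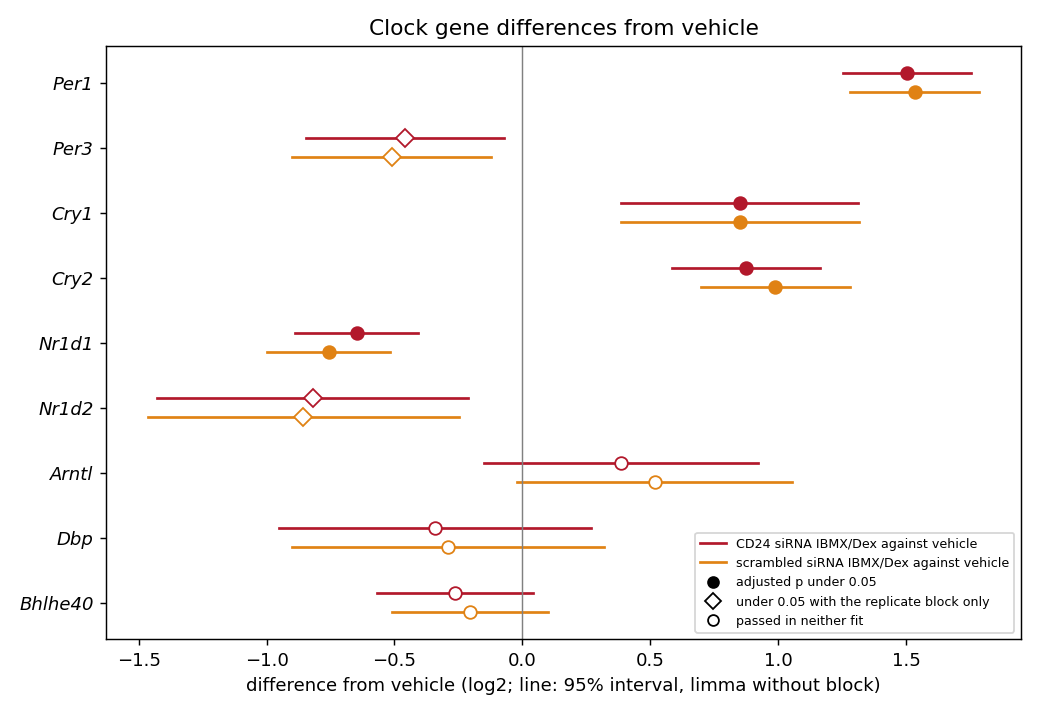
Difference of each clock gene from vehicle in log2 units, for CD24 siRNA plus IBMX/Dex (red, upper) and scrambled siRNA plus IBMX/Dex (orange, lower), with the 95% interval from limma without the block. Filled circles passed an adjusted p of 0.05, open diamonds passed only with the replicate block and open circles passed in neither fit; Per1, Cry1 and Cry2 lie to the right and Nr1d1, Nr1d2 and Per3 to the left of 0.

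The promoters of the clock genes are shown where each gene is described, since E-boxes, cAMP response elements, D-boxes and ROREs are the sequences through which the loop and cAMP are known to act. They are RefSeq windows of the GRCm38.p6 build, 300 bases long, from 250 bases before to 50 after a start. Of the 10 genes 8 had 10 windows in all, and Per2 and Bhlhe40 had none. Capitals mark matches on either strand, and positions count from 1 at the 5′ end of a window. A match lay in 6 windows of 5 genes. The share of all windows with any of the motifs was not counted, so that number is a description only. The letters searched were CACGTG (E-box), TGACGTCA (full cAMP response element), TGACG (its core, which also lies inside the full element), TTATGTAA or TTACGTAA (D-box), TAGGTCA (RORE core) and AGAACA (core of the glucocorticoid response element). Over all 32851 RefSeq windows the shares with a match were 7.15% for CACGTG, 1.79% for TGACGTCA, 20.8% for TGACG, 0.938% for TTATGTAA, 0.119% for TTACGTAA, 2.61% for TAGGTCA and 19% for AGAACA. None of the 10 clock windows held TGACGTCA, TTACGTAA or AGAACA. The full glucocorticoid element (in 0.00913% of all windows) contains AGAACA, so its absence follows from that of AGAACA. Elements outside these 300 bases were not searched. A match is a description of the letters, and no binding was measured.

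Per1 encodes a repressor of the loop and showed the largest difference of the 9 genes in both comparisons with vehicle. It has 2 windows, at chr11:69098699-69098998 and chr11:69099902-69100201 on the plus strand. The first held CACGTG at 85 to 90 and TGACG at 5 to 9, and the second held TGACG at 119 to 123:
Per1, the first window: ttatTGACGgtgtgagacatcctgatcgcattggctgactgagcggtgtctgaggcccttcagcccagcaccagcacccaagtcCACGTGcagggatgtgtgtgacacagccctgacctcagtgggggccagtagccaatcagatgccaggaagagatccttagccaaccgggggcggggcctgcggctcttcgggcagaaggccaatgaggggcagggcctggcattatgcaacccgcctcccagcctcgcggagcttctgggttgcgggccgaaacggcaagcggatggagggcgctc
Per1, the second window: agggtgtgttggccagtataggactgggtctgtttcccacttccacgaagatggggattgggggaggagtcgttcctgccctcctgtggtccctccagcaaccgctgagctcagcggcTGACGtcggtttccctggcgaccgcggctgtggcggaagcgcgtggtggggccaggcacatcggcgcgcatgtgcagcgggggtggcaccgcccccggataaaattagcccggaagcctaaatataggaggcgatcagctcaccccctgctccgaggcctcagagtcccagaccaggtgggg

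The log2 level of Per1 was 11.02, 10.97 and 11.07 with CD24 siRNA and IBMX/Dex, 11.03, 11.08 and 11.04 with scrambled siRNA and IBMX/Dex, and 9.59, 9.31 and 9.65 with vehicle. All 6 IBMX/Dex arrays lay close together and at least 1.32 log2 units above the highest vehicle array. Per1 rose 2.89-fold with scrambled siRNA and IBMX/Dex (log2 difference 1.53 ± 0.11 SE, limma adjusted p = 0.000185). With CD24 siRNA and IBMX/Dex it rose 2.83-fold against vehicle (1.5 ± 0.11 SE, limma adjusted p = 0.000245). The same-numbered differences were 1.44, 1.77 and 1.39 with scrambled siRNA and 1.43, 1.66 and 1.42 with CD24 siRNA. Its SD over the scrambled siRNA arrays was 0.03, and 96.7% of tested genes had a larger one in that group. Leaving out the array labelled CD24 siRNA replicate 3 gave 1.48 for CD24 siRNA.

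Per3 encodes the third PERIOD protein, whose loss in mice leaves the rhythm largely in place. Its window, at chr4:151044616-151044915 on the minus strand, held the D-box TTATGTAA at 46 to 53 and again at 93 to 100:
Per3: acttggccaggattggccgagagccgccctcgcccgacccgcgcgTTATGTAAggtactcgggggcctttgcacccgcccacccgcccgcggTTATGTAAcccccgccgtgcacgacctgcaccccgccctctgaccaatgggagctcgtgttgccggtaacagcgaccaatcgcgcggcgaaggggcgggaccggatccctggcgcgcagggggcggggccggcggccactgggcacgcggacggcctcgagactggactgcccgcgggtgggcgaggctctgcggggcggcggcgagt

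Per3 went the other way from Per1. Its log2 level was 6.88, 6.94 and 6.87 with CD24 siRNA, 6.77, 6.93 and 6.83 with scrambled siRNA, and 7.0, 7.76 and 7.30 with vehicle. The 6 IBMX/Dex arrays were close together and just under the lowest vehicle array, by 0.07 for the scrambled siRNA arrays. The difference of scrambled siRNA with IBMX/Dex from vehicle was -0.51 ± 0.17 SE (limma adjusted p = 0.114 without and 0.0216 with the replicate block). For CD24 siRNA with IBMX/Dex it was -0.46 ± 0.17 SE (limma adjusted p = 0.154 without and 0.0352 with the block). Leaving out the array labelled CD24 siRNA replicate 3 gave -0.44 for CD24 siRNA (limma adjusted p = 0.299 without and 0.0973 with the block). By replicate number the Per3 differences were -0.23, -0.83 and -0.47 with scrambled siRNA and -0.12, -0.82 and -0.43 with CD24 siRNA, so number 2 was the largest in both. Without the block Per3 passed in both comparisons when vehicle replicate 1 was left out. In the blocked fit Per3 did not pass for scrambled siRNA without scrambled siRNA replicate 2 or 3 or vehicle replicate 2. For CD24 siRNA it passed in 3 of the 9 blocked fits that leave out 1 array, those without CD24 siRNA replicate 1, scrambled siRNA replicate 2 or vehicle replicate 1, and its difference was -0.29 without vehicle replicate 2.

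Cry1 and Cry2 encode the cryptochromes, the strongest repressors of the ARNTL and CLOCK pair. The Cry1 window, at chr10:85185005-85185304 on the minus strand, held CACGTG at 191 to 196 and TGACG at 243 to 247. The Cry2 window, at chr2:92434020-92434319 on the minus strand, held TGACG on the opposite strand at 42 to 46, printed as its reverse complement CGTCA:
Cry1: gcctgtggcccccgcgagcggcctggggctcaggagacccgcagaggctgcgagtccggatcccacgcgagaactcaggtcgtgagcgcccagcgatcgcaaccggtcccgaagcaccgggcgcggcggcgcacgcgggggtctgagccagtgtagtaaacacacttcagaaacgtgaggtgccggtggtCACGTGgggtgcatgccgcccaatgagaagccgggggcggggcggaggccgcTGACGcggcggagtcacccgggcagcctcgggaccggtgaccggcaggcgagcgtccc
Cry2: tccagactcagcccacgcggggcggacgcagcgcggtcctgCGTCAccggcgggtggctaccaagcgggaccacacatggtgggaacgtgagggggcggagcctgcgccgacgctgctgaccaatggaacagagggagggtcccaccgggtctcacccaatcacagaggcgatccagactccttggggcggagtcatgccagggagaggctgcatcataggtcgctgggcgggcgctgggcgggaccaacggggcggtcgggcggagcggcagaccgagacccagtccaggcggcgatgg

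Cry2 stood at 8.69, 8.56 and 8.74 with CD24 siRNA, 8.89, 8.61 and 8.83 with scrambled siRNA, and 7.74, 7.64 and 7.99 with vehicle. Every IBMX/Dex array was above every vehicle array, by at least 0.57 log2 units. Cry2 rose 1.98-fold with scrambled siRNA and IBMX/Dex (log2 difference 0.99 ± 0.13 SE, limma adjusted p = 0.00342) and 1.83-fold with CD24 siRNA and IBMX/Dex (0.87 ± 0.13 SE, limma adjusted p = 0.00664). For CD24 siRNA the difference was 0.84 when its array of number 3 was left out (limma adjusted p = 0.0327). Number 2 had the lowest Cry2 level in all 3 groups.

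Cry1 stood at 8.51, 8.00 and 7.95 with CD24 siRNA, 8.56, 8.05 and 7.85 with scrambled siRNA, and 7.40, 7.19 and 7.32 with vehicle. The groups did not overlap, but the IBMX/Dex arrays of number 1 stood above those of the other numbers. Cry1 rose 1.80-fold in both comparisons with vehicle (log2 difference 0.85 ± 0.21 SE in each; limma adjusted p = 0.0415 with scrambled siRNA and 0.0420 with CD24 siRNA). With the replicate block the adjusted p was 0.00150 with scrambled siRNA and 0.00166 with CD24 siRNA. The same-numbered differences were 1.16, 0.86 and 0.53 with scrambled siRNA and 1.11, 0.81 and 0.63 with CD24 siRNA. Without the block the scrambled siRNA call held in 1 of the 9 fits that leave out 1 array, the one without CD24 siRNA replicate 1, with adjusted p up to 0.108. When the array labelled CD24 siRNA replicate 3 was left out, the CD24 siRNA difference was 0.95 (limma adjusted p = 0.0818 without and 0.00768 with the block). Without the block the CD24 siRNA call held in 2 of 9 such fits, those without scrambled siRNA replicate 1 or 3, with adjusted p up to 0.124. With the block both calls held in 9 of 9, with log2 differences between 0.71 and 0.98.

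Nr1d1 and Nr1d2 encode the REV-ERB receptors, the repressing arm that acts on Arntl. Both had negative differences from vehicle. Nr1d1 was at 8.60, 8.40 and 8.58 with CD24 siRNA, 8.50, 8.44 and 8.30 with scrambled siRNA, and 9.17, 9.25 and 9.09 with vehicle. The 3 vehicle arrays lay close together, and no IBMX/Dex array came closer than 0.50 log2 units to the lowest of them. Nr1d1 was 1.69-fold lower with scrambled siRNA and IBMX/Dex (log2 difference -0.76 ± 0.11 SE, limma adjusted p = 0.00499). It was 1.57-fold lower with CD24 siRNA and IBMX/Dex (-0.65 ± 0.11 SE, limma adjusted p = 0.00943, and -0.67 without the array labelled CD24 siRNA replicate 3). Both calls held without any 1 of the 9 arrays.

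Nr1d2 stood at 7.40, 8.00 and 7.77 with CD24 siRNA, 7.60, 8.17 and 7.28 with scrambled siRNA, and 8.18, 8.95 and 8.49 with vehicle. Arrays of number 2 were the highest in each group, and the highest scrambled siRNA array came within 0.01 log2 units of the lowest vehicle array. The difference from vehicle was -0.86 ± 0.27 SE with scrambled siRNA (limma adjusted p = 0.0947 without and 0.00293 with the replicate block). With CD24 siRNA it was -0.82 ± 0.27 SE (limma adjusted p = 0.110 without and 0.00391 with the block). Leaving out the array labelled CD24 siRNA replicate 3 gave -0.84 for CD24 siRNA (limma adjusted p = 0.216 without and 0.00569 with the block). The same-numbered differences were -0.58, -0.78 and -1.21 with scrambled siRNA and -0.78, -0.95 and -0.72 with CD24 siRNA. With the block Nr1d2 passed in 9 of 9 fits that leave out 1 array, in both comparisons, and without the block in none of 9. No searched motif lay in the windows of Nr1d1 and Nr1d2.

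Arntl encodes the activator of the loop. It has 2 windows that overlap, and the one at chr7:113207261-113207560 on the plus strand held the RORE core TAGGTCA at 281 to 287. ROREs are the elements on which REV-ERB and ROR receptors compete:
Arntl: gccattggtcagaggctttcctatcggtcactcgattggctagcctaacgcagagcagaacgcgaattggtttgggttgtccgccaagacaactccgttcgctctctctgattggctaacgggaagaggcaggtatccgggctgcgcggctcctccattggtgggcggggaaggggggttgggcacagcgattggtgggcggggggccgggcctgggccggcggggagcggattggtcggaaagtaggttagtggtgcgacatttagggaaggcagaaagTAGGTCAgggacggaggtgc

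Arntl was at 9.17, 9.12 and 9.32 with CD24 siRNA, 9.44, 9.18 and 9.39 with scrambled siRNA, and 9.08, 8.18 and 9.20 with vehicle. The groups overlapped, and vehicle replicate 2 stood about 1 log2 unit below the other vehicle arrays. The difference from vehicle was 0.52 ± 0.24 SE with scrambled siRNA (limma adjusted p = 0.239 without and 0.0503 with the block) and 0.39 ± 0.24 SE with CD24 siRNA (limma adjusted p = 0.391 without and 0.130 with the block). Without vehicle replicate 2 these differences were 0.20 and 0.07, and the CD24 siRNA one was 0.33 when its array of number 3 was left out. With the block the scrambled siRNA difference passed without CD24 siRNA replicate 2 (limma adjusted p = 0.0406) or without vehicle replicate 3 (limma adjusted p = 0.0310).

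Dbp, a D-box binding output factor of the clock, had no searched motif in its window and did not pass. Its log2 level was 7.31, 7.81 and 7.92 with CD24 siRNA, 7.39, 7.92 and 7.88 with scrambled siRNA, and 7.48, 8.48 and 8.11 with vehicle. Number 1 was the lowest in every group, and the groups overlapped. The difference from vehicle was -0.29 ± 0.27 SE with scrambled siRNA (limma adjusted p = 0.582 without and 0.110 with the block). With CD24 siRNA it was -0.34 ± 0.27 SE (limma adjusted p = 0.518 without and 0.0700 with the block). Without vehicle replicate 2 these differences were -0.06 and -0.11, and without vehicle replicate 1 they were -0.56 and -0.61. The CD24 siRNA difference was -0.46 when its array of number 3 was left out, and none of these passed.

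Bhlhe40 encodes DEC1, a repressor that competes for E-boxes. Its log2 level was 9.78, 9.88 and 9.85 with CD24 siRNA, 9.70, 9.98 and 10.00 with scrambled siRNA, and 9.89, 10.08 and 10.32 with vehicle. The highest CD24 siRNA array was 0.01 log2 units below the lowest vehicle array, while the scrambled siRNA and vehicle arrays overlapped. The differences from vehicle were -0.20 ± 0.14 SE with scrambled siRNA (limma adjusted p = 0.419) and -0.26 ± 0.14 SE with CD24 siRNA (limma adjusted p = 0.297), and neither passed with the block. Without vehicle replicate 3 they were -0.09 and -0.15, and the CD24 siRNA difference was -0.27 when its array of number 3 was left out.

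The clock genes differed in how much of their variation went with the treatment groups. Group accounted for 98.5% of the sum of squares over the 9 arrays for Per1, 94.6% for Nr1d1 and 93.1% for Cry2, beside a mean of 33.7% over all tested genes. For Dbp group accounted for 18.4% and the replicate number for 72.8%, beside a mean of 39.2% for the number over all genes. The share with the number was 41.9% for Bhlhe40, 35.2% for Arntl and 31.0% for Nr1d2, near or below that mean. The labels give same-numbered samples of the 3 groups a common code, and what the numbers share is not stated.

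**Figure D3:**
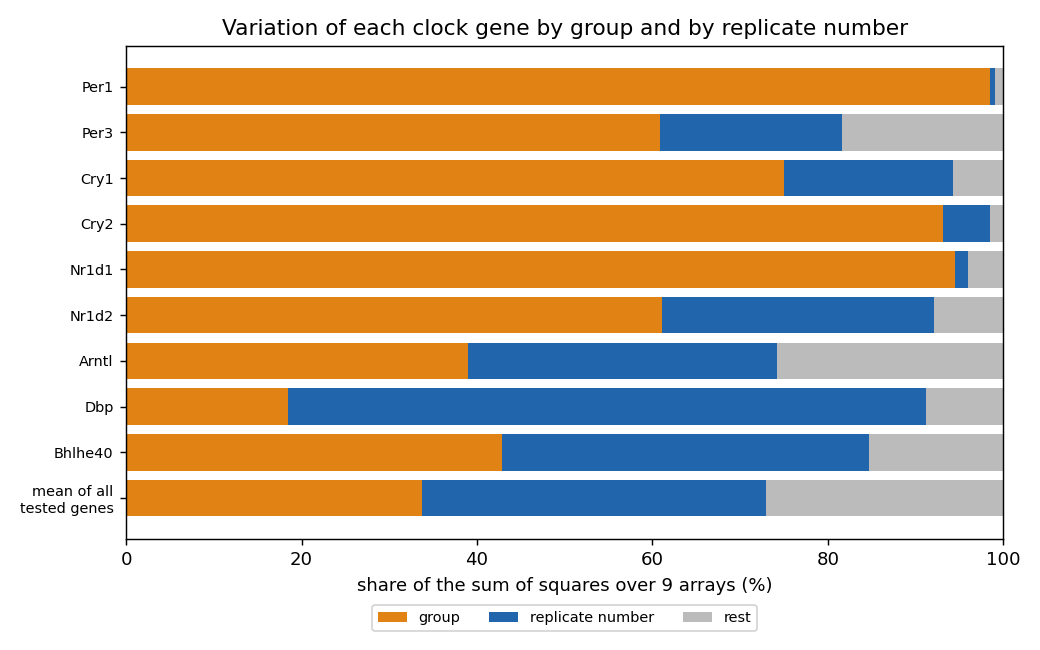
Share of each clock gene's sum of squares over 9 arrays (percent) that goes with the 3 groups (orange), with the 3 replicate numbers (blue) and with neither (grey), and the mean shares over all tested genes in the lowest bar. Per1, Cry2 and Nr1d1 are nearly all orange, while Dbp is mostly blue.

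The vehicle arrays spread widely for Arntl, Dbp, Nr1d2 and Per3, which was seen after the values were known. For Arntl vehicle replicate 2 lay apart from the others, for Dbp replicate 1 lay farthest from the mean, and for Nr1d2 and Per3 replicates 1 and 2 lay on opposite sides of it. The difference of vehicle replicate 2 from the mean of vehicle replicates 1 and 3 was -0.96 log2 units for Arntl, 0.69 for Dbp, 0.62 for Nr1d2 and 0.61 for Per3. Among vehicle arrays the SD was 0.56 for Arntl, 0.51 for Dbp, 0.39 for Nr1d2 and 0.38 for Per3. Of all tested genes 5.42% had a larger vehicle SD than Arntl, 7.06% than Dbp, 14% than Nr1d2 and 14.7% than Per3. Per1 and Nr1d1 varied less, with vehicle SDs of 0.18 and 0.08. Without vehicle replicate 2 the difference from vehicle was -0.65 with scrambled siRNA and -0.61 with CD24 siRNA for Nr1d2, and -0.31 and -0.26 for Per3. For the remaining clock genes vehicle replicate 2 differed from the mean of vehicle replicates 1 and 3 by less. The values were -0.31 for Per1, -0.23 for Cry2, -0.17 for Cry1, 0.12 for Nr1d1 and -0.03 for Bhlhe40. As background, Arntl peaks in tissues with a running clock when Dbp, Nr1d2 and Per3 are low. These genes were named after the values were seen, and Nr1d1, the other REV-ERB gene, differed by only 0.12. Whether the vehicle arrays differed in clock phase was not tested.

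**Figure D4:**
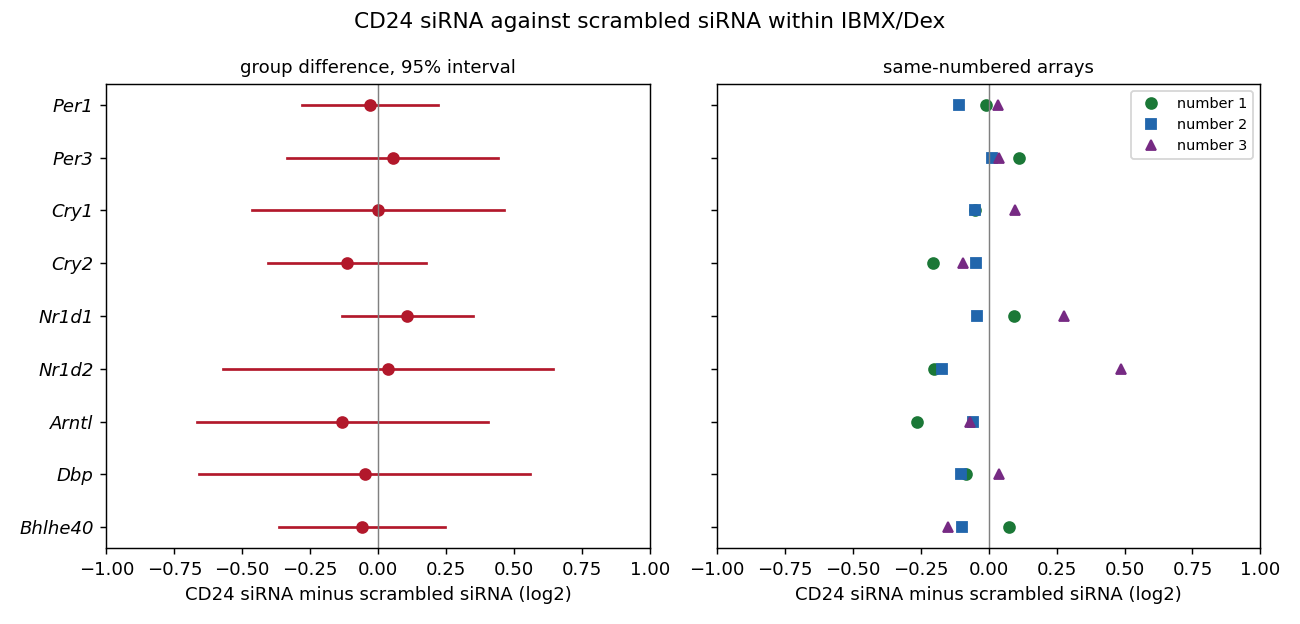
Difference between CD24 siRNA and scrambled siRNA within IBMX/Dex for each clock gene in log2 units, as the group difference with its 95% interval (left) and as the difference of each same-numbered pair of arrays (right). All 9 intervals, from limma without the block, include 0, and the largest pair difference is that of Nr1d2 in number 3.

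CD24 siRNA and scrambled siRNA were compared directly within IBMX/Dex. Cd24a, the siRNA target, did not itself pass in this comparison (-0.90, 95% interval -1.87 to 0.06), so the test could not call the knockdown. None of the 9 clock genes passed in limma (0 of 12630 genes did, 0% of all genes, with or without the block). Before adjustment 0 of 9 had a limma p under 0.05 in either fit, as 30 genes did without and 219 with the block. The arrays of both groups overlapped for 9 of 9, and groups did not overlap for 2.41% of all genes. The median size of the 9 differences without sign was 0.05 log2 units beside 0.06 for all genes. The Per1 difference was -0.03 with a 95% interval of -0.28 to 0.22, which allows 0.823-fold to 1.17-fold. For Cry2 it was -0.12 (-0.41 to 0.18) and for Nr1d1 0.11 (-0.13 to 0.35). Cry1 differed by less than 0.01 (-0.46 to 0.46). These intervals are from the fit without the block. The widest in that fit were those of Dbp (-0.66 to 0.56) and Nr1d2 (-0.57 to 0.64). They allow 0.634-fold to 1.47-fold for Dbp and 0.673-fold to 1.56-fold for Nr1d2. With the block the intervals were narrower, at -0.32 to 0.22 for Dbp, -0.28 to 0.36 for Nr1d2 and -0.28 to 0.28 for Cry1. The widest with the block was that of Arntl (-0.50 to 0.24). When the array labelled CD24 siRNA replicate 3 was left out, the differences were -0.06 for Per1, -0.15 for Cry2, 0.10 for Cry1 and 0.08 for Nr1d1, and none passed. In the number 3 pair Nr1d2 was 0.49 higher with CD24 siRNA, against -0.20 and -0.17 in the other pairs. Per3, Cry2 and Arntl had 1 sign in 3 of 3 pairs, and their largest pair differences were 0.11, -0.20 and -0.27. The share of all genes with 1 sign was not counted in this comparison, so these signs are a description only.

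A further 39 genes of the clock pathway, from textbook lists chosen with earlier results of these arrays known, were read from the same fits. Of these 32 were tested, 3 lay below the filter, 1 was found only on a probe set of several genes and 3 were unnamed here. With scrambled siRNA and IBMX/Dex 4 rose against vehicle and none fell, and with the replicate block 7 rose and 1 fell. These are 4 and 8 of 32, against 6.94% of all genes without and 23.3% with the block, so the blocked count is near the share of all genes. With CD24 siRNA and IBMX/Dex 4 rose and none fell, and with the block 6 rose and 2 fell, against 6.65% and 22.4% of all genes, and again the blocked count is near that share. Without the array labelled CD24 siRNA replicate 3, 3 of 32 (9.38%) passed against 2.54% of all genes, and 4 of 32 (12.5%) with the block against 14%. Nfil3, Sfpq and Sik1 passed in both of those fits (limma adjusted p = 0.0155, 0.0180 and 0.0169 without the block), and Id2 with the block only (limma adjusted p = 0.116 without and 0.0312 with it). Bhlhe41, Ciart, Usp2 and Fbxl21 did not pass there even with the block (limma adjusted p = 0.0552, 0.111, 0.0958 and 0.0607). The median difference of the 32 was 0.10 in both comparisons.

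Among the D-box factors Nfil3, a repressor that opposes Dbp on D-boxes, was at 10.24, 10.04 and 10.44 with CD24 siRNA, 10.45, 10.11 and 10.59 with scrambled siRNA, and 8.69, 8.34 and 8.95 with vehicle. It rose 3.31-fold with scrambled siRNA (limma adjusted p = 0.00145) and 3.00-fold with CD24 siRNA (limma adjusted p = 0.00240), while Tef and Hlf, relatives of Dbp, did not pass in either fit. Of the 5 tested loop partners none passed without the block. Ciart, a further repressor of the ARNTL and CLOCK pair, passed with it (0.68 with scrambled siRNA, limma adjusted p = 0.0715 without and 0.00974 with the block; 0.49 with CD24 siRNA, limma adjusted p = 0.183 without and 0.0407 with the block). Bhlhe41, the relative of Bhlhe40, was at -0.73 with CD24 siRNA against vehicle (limma adjusted p = 0.132 without and 0.0111 with the block). The Ciart call with the block held in 9 of 9 fits that leave out 1 array for scrambled siRNA and 5 of 9 for CD24 siRNA, and the Bhlhe41 call in 8 of 9 for CD24 siRNA. Bhlhe41 did not pass with scrambled siRNA in either fit, and the direct difference between the siRNAs did not pass. Clock itself, the partner of Arntl, differed from vehicle by 0.41 with scrambled siRNA (limma adjusted p = 0.385 without and 0.0509 with the block).

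None of the 11 tested kinases, phosphatases and ubiquitin ligases of clock proteins passed without the block. With it Usp2, a deubiquitinase gene with clock-driven expression, was higher (0.64 with scrambled siRNA, limma adjusted p = 0.0674 without and 0.0190 with the block). Fbxl21, a ligase gene for CRY proteins, was lower with it (-0.54 with scrambled siRNA, limma adjusted p = 0.241 without and 0.0340 with the block). Both also passed with the block for CD24 siRNA (limma adjusted p = 0.0365 for Usp2 and 0.0122 for Fbxl21). With the block and 1 array left out, the Usp2 call held in 7 of 9 fits for scrambled siRNA and 3 of 9 for CD24 siRNA, and the Fbxl21 call in 5 of 9 and 8 of 9. Of 13 tested complex proteins and coregulators 3 rose in both comparisons. Sik1, a kinase gene induced by cAMP that restrains clock resetting, rose 2.22-fold with scrambled siRNA and 2.19-fold with CD24 siRNA (limma adjusted p = 0.00235 and 0.00265). Sfpq, an RNA-binding partner of PER complexes, rose 1.73-fold with scrambled siRNA and 1.63-fold with CD24 siRNA (limma adjusted p = 0.00363 and 0.00684). Nfil3, Sik1 and Sfpq passed without any 1 of the 9 arrays. Id2, an inhibitor of helix-loop-helix factors, rose 8.30-fold with scrambled siRNA and 8.04-fold with CD24 siRNA (limma adjusted p = 0.0342 and 0.0368). Its vehicle arrays lay far apart, at 9.95, 9.05 and 6.47, against 11.42 to 11.63 on the IBMX/Dex arrays. Without the block the Id2 call held in 2 of 9 fits that leave out 1 array for scrambled siRNA (without vehicle replicate 1 or 3). It held in 3 of 9 for CD24 siRNA (also without scrambled siRNA replicate 1). The Id2 difference was as small as 2.04 and 2.00 without vehicle replicate 3, or as large as 3.78 and 3.74. With the block Id2 passed (limma adjusted p = 0.00570 with scrambled siRNA and 0.00635 with CD24 siRNA). The blocked call held in 9 of 9 fits that leave out 1 array, in both comparisons. Wdr5 passed with the block for scrambled siRNA alone (0.40, limma adjusted p = 0.234 without and 0.0472 with the block), and this call held in 2 of the 9 blocked fits that leave out 1 array.

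For each clock gene the 2 tested genes with the highest Pearson correlation over the 9 arrays were listed, as a description, since the arrays fall into groups and share replicate numbers. For Per1 these were Rgs2 and Limk1 (r = 0.996 each). The closest to Cry2 were Nfil3 (0.995), from the clock lists, and Nr4a1 (0.994). Cry1 was closest to Got1 (0.982) and Bag1 (0.981), Nr1d1 to Scrn1 (0.981) and Pik3ip1 (0.981), and Nr1d2 to Uevld (0.967) and Vstm2a (0.946). Arntl was closest to Ttpal (0.989) and Ereg (0.987), Dbp to Psd3 (0.978) and Mapre2 (0.965), and Bhlhe40 to Pik3ca (0.990) and Wbp2 (0.982). For Per3 they were A930024E05Rik (0.986) and Slc5a7 (0.985). No clock gene of the 10 was among the closest to another.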

How the data were processed

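RNA (250 ng a sample) of 9 samples was hybridised to 1 single-colour array each. The authors deposited log2 expression values for 41345 probe sets, which the submitters' processing notes credit to RMA and the oligo package. RMA corrects background, normalizes arrays together and summarises probes, so arrays share nearly the same distribution and differences of dim probe sets are compressed. Versions and genome build: not given in the sources used here. By the platform annotation 23521 probe sets had 1 gene, 1814 several and 16010 were unnamed here. Sample titles gave the groups and the numbers.

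Differences were fitted to the deposited log2 values by lmFit and eBayes (limma 3.58.1 under R 4.3.3), with 1 mean per group and two-sided p-values adjusted by Benjamini-Hochberg over 12630 genes, and the fit was tested on simulated data. Deviations from the group mean correlated between arrays of one number (0.377 to 0.732, against at most 0.116 for other pairs), and those samples share a code in the labels. The main fit has no block, so its p-values, SEs and intervals ignore this pairing by number. A second fit took the number as a block, and its adjusted p stands beside each call it changes. The SEs printed are all from the fit without the block, also where a blocked p stands beside them. With the block the SE for scrambled siRNA against vehicle was 0.14 for Nr1d2 and 0.12 for Dbp, for example. Members and lists were chosen with earlier results of these data known. Named are all clock genes, Cd24a, listed pathway genes that pass in either fit (Clock, Tef and Hlf were added after values were seen) and the closest 2 genes by correlation. Alternatives were the block, each array left out, other filters (none, or 8.07), the mean of probe sets, quantile normalization, median centring, an intensity trend with robust estimation, and 2 groups alone. Blocked fits without each array other than CD24 siRNA replicate 3 were added after seeing the data.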

Additional observations from a re-analysis of the deposited data

How the results depend on the processing

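The number of clock genes passing against vehicle was 4 in both comparisons and 3 or 4 under every alternative without the block, each array left out included; Cry1 was missing in the fits with 3 (it was not tested with the filter at 8.07), and Per3 stood in its place without vehicle replicate 1. With the replicate block 6 passed in both comparisons, and with the block and 1 array left out 5 to 7 with scrambled siRNA (7 without CD24 siRNA replicate 2 or vehicle replicate 3) and 5 or 6 with CD24 siRNA. Between CD24 siRNA and scrambled siRNA the count was 0 throughout. The other clock genes passing against vehicle numbered 4 in both comparisons, 8 in both with the replicate block, and 4 to 9 with the block and 1 array left out. Over all genes the counts were 876 (scrambled siRNA) and 840 (CD24 siRNA), 2942 and 2831 with the block, 389 and 461 with 2 groups alone, and as low as 313 and 321 with 1 array left out. No difference of a clock gene from vehicle changed sign in any fit. Between the siRNAs, where no gene passed, the sign of Cry1 (-0.00055) turned with quantile normalization (0.027). With 1 array left out the differences spanned -0.18 to 0.20 for Cry1, -0.17 to 0.28 for Nr1d2 and -0.22 to 0.14 for Dbp. With the replicate block as well, signs turned for Per1 (0.049), Per3 (-0.045, -0.015), Cry1 (0.022, 0.030, 0.089, 0.014), Nr1d2 (-0.099, -0.16), Dbp (0.046, 0.011) and Bhlhe40 (0.018). The cause was not tested. Every clock gene had 1 probe set of its own, so no other probe set could be tried. Per3 lay near the filter level, where RMA compresses differences.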
